A study of Drosophila melanogaster with 12 samples.

Results

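The regions described here are the 10 kb stretches of the fly genome with the least *Pcl* signal in the sweet taste neurons. Chromosome arms 2L, 2R, 3L, 3R, 4 and X were divided into bins of 10 kb counted from the first base of each arm. The deposited value, log2(*Dam::Pcl/Dam*), was averaged in each bin with every fragment weighted by its length, and then over the 6 *Dam::Pcl* samples. The 669 bins in the lowest 5% of 13378 bins are the members, and the other 12709 bins serve for comparison. A negative value means fewer reads from *Dam::Pcl* than from *Dam* alone after both were scaled to each other, so that a bin below 0 holds less *Pcl* relative to *Dam* than the scaling sets as even.

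All 6 samples carried the genotype Gr5a;tubulinGAL80ts>UAS-LT3-Dam::Pcl, in which the *Gr5a* driver directs the fusion protein to the sweet taste neurons and a temperature-sensitive GAL80 holds it off until flies are warmed. The 3 control diet samples came from flies on 5% sucrose and the 3 sugar diet samples from flies on 30% sucrose, with heads of males and females pooled at 300 per replicate. Flies were collected 2 days after eclosion, and the labels give the start of the diet as day 5 and the move from 20°C to 29°C as day 6. The sample titles, however, give 4 days. The study's methods give a longer time on the diet and a slightly lower temperature after the move. Samples of *Dam* alone, Gr5a;tubulinGAL80ts>UAS-LT3-Dam, enter only as the authors' denominators. The data were 373710 fragments between GATC sites with a median length of 196 bp. Because ratios were deposited, the read depth behind each value is unknown and the 3 samples per diet set the precision. Of the fragments at exactly 0 in a sample, 0% were negative in another sample of the same diet and between 8.99% and 15.7% in a sample of the other diet. Whether the samples of a diet share a *Dam* denominator is not given in the sources used here, and if they do, the spread within a diet leaves out the variation between samples of *Dam* alone.

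*Pcl* (*Polycomblike*) is an accessory subunit of Polycomb Repressive Complex 2, the enzyme complex that methylates histone H3 on lysine 27 and keeps developmental genes silent. In TaDa (Targeted DamID), a chromatin protein carries the bacterial methylase *Dam*, which marks adenine in the GATC sites near to where the protein sits, and *Dam* alone marks chromatin wherever it is open. Active promoters and housekeeping genes, which every cell uses, are therefore places where *Dam* alone has ready access and where Polycomb proteins are usually sparse. Many housekeeping promoters of the fly carry a DNA replication-related element (DRE) or the core promoter element called Motif 1.

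To show what these regions hold, promoters were read from the Release 6 (dm6) genome of RefSeq for genes that start in the lowest bins, from 250 bases before to 30 bases after the annotated 5′ end, on the strand of the gene. Capitals mark a DRE (TATCGATA), the core of Motif 1 (GGTCACACT) or a TATA-like hexamer (TATAAA). The promoters shown are those of *MED15*, a subunit of the Mediator complex that links activators to RNA polymerase II (2L:472763-473042, plus strand), *Ranbp16*, a nuclear transport receptor (X:15933838-15934117, minus strand), *Prosbeta7*, a subunit of the proteasome core (3R:5358335-5358614, minus strand), and *chico*, the insulin receptor substrate (2L:10247049-10247328, minus strand). Each of them holds a marked sequence, so they do not stand for all promoters read from the lowest bins. Those of *CG17768*, *LSm-4*, *Ir31a*, *mtd*, *CG11999*, *CG1161*, *CG4297* and *cbt* hold none of the marked sequences. Of the promoters read, only that of *Ranbp16* holds a DRE and only that of *MED15* the core of Motif 1.
MED15 promoter: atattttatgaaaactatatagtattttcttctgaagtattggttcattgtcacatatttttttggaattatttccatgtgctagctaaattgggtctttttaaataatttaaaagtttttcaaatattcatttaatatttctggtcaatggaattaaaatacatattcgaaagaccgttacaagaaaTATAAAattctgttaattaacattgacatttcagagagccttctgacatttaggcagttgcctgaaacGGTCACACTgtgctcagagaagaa
Ranbp16 promoter: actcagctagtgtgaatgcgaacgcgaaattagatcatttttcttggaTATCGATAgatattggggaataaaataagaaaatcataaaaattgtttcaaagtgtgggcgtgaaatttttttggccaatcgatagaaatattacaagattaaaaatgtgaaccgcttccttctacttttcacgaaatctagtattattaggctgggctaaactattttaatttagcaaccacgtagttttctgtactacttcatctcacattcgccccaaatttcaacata
Prosbeta7 promoter: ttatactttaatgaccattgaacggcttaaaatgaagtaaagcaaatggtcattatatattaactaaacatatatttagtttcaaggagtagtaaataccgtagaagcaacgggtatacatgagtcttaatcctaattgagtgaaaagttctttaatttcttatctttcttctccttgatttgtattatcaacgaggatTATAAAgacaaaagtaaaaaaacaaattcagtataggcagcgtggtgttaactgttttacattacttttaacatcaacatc
chico promoter: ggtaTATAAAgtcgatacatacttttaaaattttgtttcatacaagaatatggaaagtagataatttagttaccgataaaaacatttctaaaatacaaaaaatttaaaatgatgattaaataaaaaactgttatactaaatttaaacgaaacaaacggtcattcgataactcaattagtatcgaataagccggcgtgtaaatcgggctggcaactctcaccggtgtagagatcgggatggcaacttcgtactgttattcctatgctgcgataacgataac
GATC fragments from 3 of the lowest bins show the unit in which the signal was measured, with the GATC site at each end in capitals, all read on the plus strand. They were chosen after values were seen, and lie wholly in coding exons. The first is in *Bruce*, an inhibitor of apoptosis (3R:10325253-10325519), the second is in *MED15* (2L:474382-474626), and the third is in *Cnot4*, a ubiquitin ligase that associates with the CCR4-NOT complex (2L:10400353-10400634).
Bruce fragment: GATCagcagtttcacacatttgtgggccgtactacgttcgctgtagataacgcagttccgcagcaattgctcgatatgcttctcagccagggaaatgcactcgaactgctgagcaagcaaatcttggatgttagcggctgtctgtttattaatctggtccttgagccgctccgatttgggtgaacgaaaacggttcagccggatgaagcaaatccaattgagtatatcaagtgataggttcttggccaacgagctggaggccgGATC
MED15 fragment: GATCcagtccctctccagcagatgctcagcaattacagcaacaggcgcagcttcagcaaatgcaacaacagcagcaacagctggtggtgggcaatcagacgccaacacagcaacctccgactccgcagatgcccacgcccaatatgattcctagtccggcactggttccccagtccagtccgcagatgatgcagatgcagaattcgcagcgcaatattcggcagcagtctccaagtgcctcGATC
Cnot4 fragment: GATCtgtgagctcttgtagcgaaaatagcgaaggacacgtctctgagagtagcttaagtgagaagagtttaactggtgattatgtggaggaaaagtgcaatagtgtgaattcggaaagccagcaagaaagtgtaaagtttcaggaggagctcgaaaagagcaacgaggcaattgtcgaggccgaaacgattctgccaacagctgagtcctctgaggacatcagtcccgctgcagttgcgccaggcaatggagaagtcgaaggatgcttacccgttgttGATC
The *Bruce* fragment, with a GC content of 49.1%, read -1.95, -2.41 and -1.65 in the control diet samples and -0.84, -1.39 and -1.25 in the sugar diet samples. The *MED15* fragment, with a GC content of 55.9%, read -2.15, -2.53 and -2.01 on the control diet and -0.31, -0.36 and -0.39 on the sugar diet. In these fragments of *Bruce* and *MED15* the sugar diet samples lay above all control diet samples. The *Cnot4* fragment, with a GC content of 48.2%, read -0.82, -1.37 and -1.35 on the control diet and -1.88, -1.35 and -1.83 on the sugar diet, so that the diets overlapped. All 3 fragments were negative in every sample.

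The average over the 6 samples ran from -1.10 in the lowest bin to the threshold of -0.41, with a median of -0.53 in the members against 0.11 in all bins. The member median was -0.48, -0.59 and -0.56 in control diet replicates 1, 2 and 3, and -0.56, -0.56 and -0.58 in sugar diet replicates 1, 2 and 3. The samples thus gave nearly the same middle level, and control diet replicate 1 stood slightly above the rest, as it did over all bins, where its median was 0.22 against 0.05 to 0.15 in the other 5 samples. In 594 members (88.8%) all 6 samples were below 0, which held for 13.7% of all bins. The control diet mean was above 0 in 40 members, 20 of them on chromosome 4, and the sugar diet mean in 1. The median within-diet SD was 0.08 in the members and 0.08 in all bins. Of the GATC fragments that start in members, 81.9% averaged below 0 and 13.9% below -1, against 40.6% and 2.13% of all fragments, and 0.18% averaged above 1, against 9.14%. These levels chose the bins and are given as a description.

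**Figure D1:**
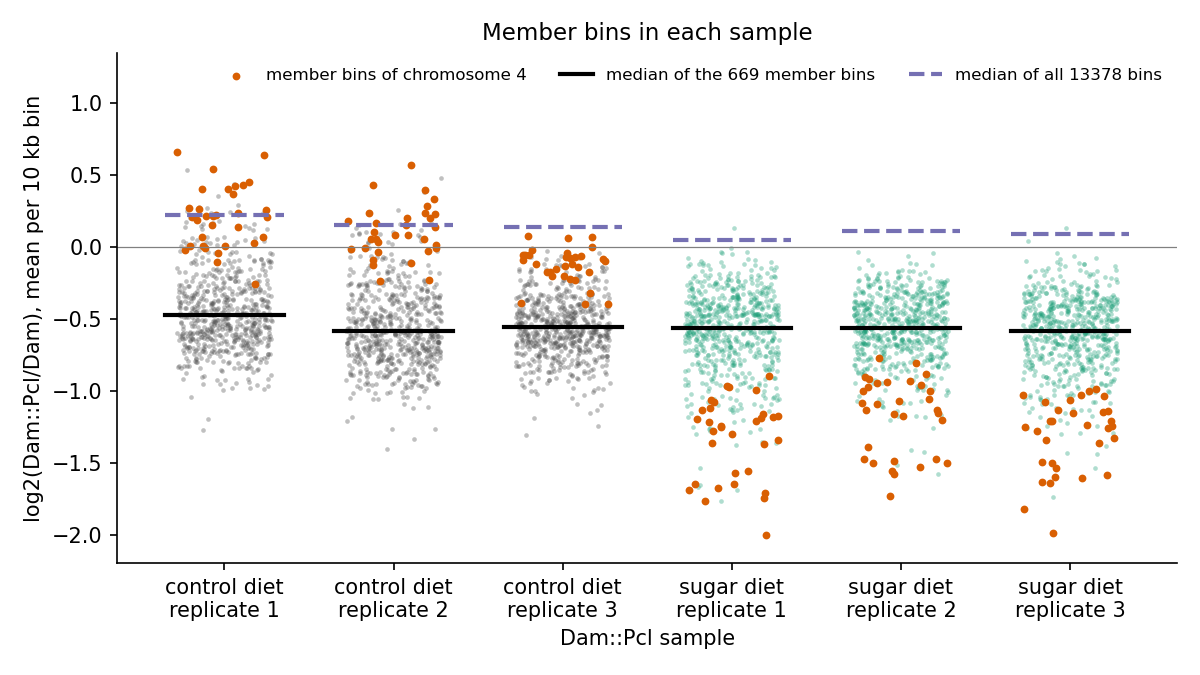
Mean log2(*Dam::Pcl/Dam*) of each of the 669 member bins (points) in the 6 *Dam::Pcl* samples, with the member median (solid line) and the median of all 13378 bins (dashed line); horizontal scatter within a sample is random. Member medians sit between -0.48 and -0.59 in the samples, and the bins of chromosome 4 (orange) lie near 0 on the control diet and below most other members on the sugar diet.

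The 10 lowest bins fell into a set that was low on both diets and a set that was low mainly on the sugar diet. The lowest bin of all, 2L:10240001-10250000, holds the start of *chico* and overlaps *bsk*, the Jun kinase, and *me31B*, an RNA helicase that represses translation. It read -0.38, -0.61 and -0.81 on the control diet and -1.67, -1.42 and -1.74 on the sugar diet. The next, 2L:10400001-10410000, holds the starts of *CG17768*, *LSm-4*, a subunit of an RNA-binding ring, *Ir31a*, an ionotropic receptor, *Ip259* and *RpS27A*, which encodes ubiquitin fused to a ribosomal protein. Its values were -0.37, -0.50 and -0.69 on the control diet and -1.66, -1.58 and -1.44 on the sugar diet. In both bins every sugar diet sample was below every control diet sample.
The third bin, 3R:10320001-10330000, lies wholly inside *Bruce* and is 82.3% coding sequence. It read -1.04, -1.33 and -1.14 on the control diet and -0.73, -0.88 and -0.95 on the sugar diet, the reverse order. Bin 3R:5350001-5360000, with the starts of *mtd*, *CG11999*, *CG1161* and *Prosbeta7*, read -0.77, -0.92 and -1.24 on the control diet and -1.20, -0.97 and -0.86 on the sugar diet. The diets overlapped there, as they did in 2L:470001-480000, with the starts of *CG4297*, *MED15*, *ush*, a cofactor of GATA factors, and *cbt*, a zinc finger transcription factor, whose values were -0.78, -1.26 and -1.19 and then -0.91, -0.83 and -0.90.
Bin 4:470001-480000, inside *CG33941* and *Asator*, averaged -0.25 ± 0.15 on the control diet against -1.63 ± 0.12 on sugar (SD, n = 3), and X:15930001-15940000, with the start of *Ranbp16*, averaged -0.56 ± 0.11 (SD, n = 3) and -1.28 ± 0.10 (SD, n = 3). Bin 2L:160001-170000, inside *spen*, a large nuclear RNA-binding protein, averaged -0.22 ± 0.22 (SD, n = 3) and -1.56 ± 0.20 (SD, n = 3). In these 3 bins every sugar diet sample lay below every control diet sample, and the *Ranbp16* bin was low on the control diet as well. The gap was small at 2R:8620001-8630000, with the starts of *Vps25*, an ESCRT subunit, *beta3GalTII* and *Gle1*, an mRNA export factor, which averaged -0.87 ± 0.09 (SD, n = 3) and -0.98 ± 0.05 (SD, n = 3). There too every sugar diet sample lay below every control diet sample. Bin 2R:7800001-7810000, with the starts of *Nop17l* and *sax*, a BMP receptor, averaged -0.94 ± 0.13 (SD, n = 3) and -0.89 ± 0.16 (SD, n = 3). Of the 10 lowest bins, 3 held no gene start and lay wholly inside genes.

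At the other end of the members, the bins nearest inside the threshold were 2L:10200001-10210000, with *RpL7* and 4 other protein-coding starts, 2R:4710001-4720000, with no gene start, and 2R:24760001-24770000, with *GstE12* and 3 other starts. Their averages over the 6 samples were -0.41. The bins nearest outside it, with averages of -0.41 as well, were 2R:1590001-1600000, with the start of *BckdhB*, 2R:24570001-24580000, with the start of *SIFa*, and 3L:9400001-9410000, with the start of *eIF4E1*. The edge thus has no gap in level.

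The members were rich in gene starts. They held 2.50 protein-coding 5′ ends per bin on average, against 1.04 over all bins, and 2.97 5′ ends of any gene against 1.36. No protein-coding gene started in 18.1% of members and 51.9% of all bins, and 5 or more started in 13.6% of members and 3.36% of all bins. In total 1671 of 13945 protein-coding genes and 1986 of 18164 genes of any kind (10.9% of the latter) started in the 5% of bins that are members. Among bins with no protein-coding start, 1.74% were members. The share was 31.7% among bins with 6 starts, and lower again among the few bins with 7 (9 of 50) and with 8 or more (3 of 31). Exons covered a median of 73.2% of a member and 17.2% of any bin, and coding sequence 48.2% and 8.13%. The share covered by genes from end to end had medians of 94.9% and 92.6%, but means of 92.5% and 69.5% and lower quartiles of 90.7% and 36.6%.

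**Figure D2:**
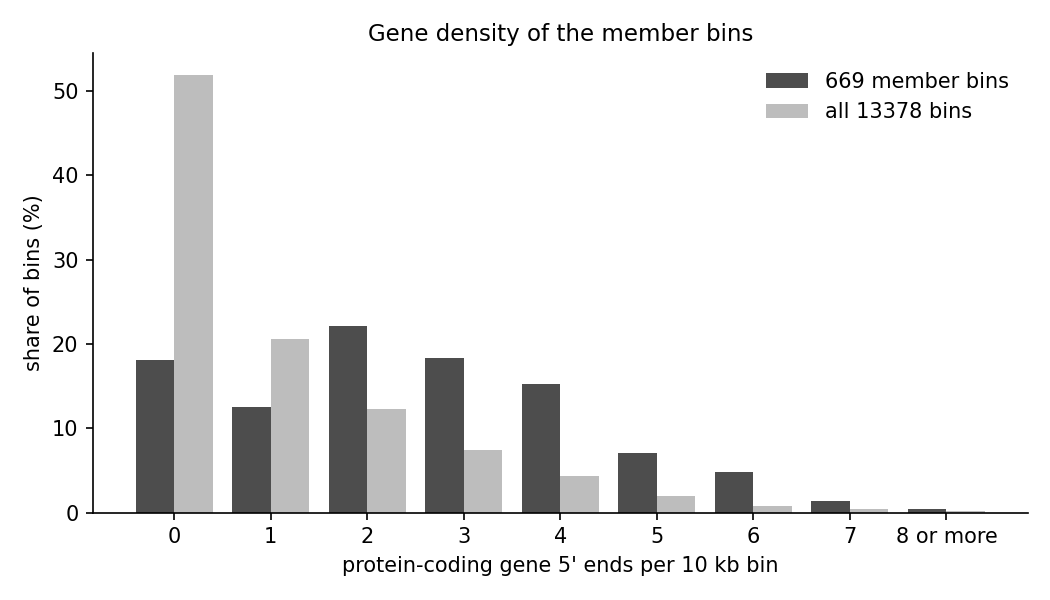
Share of bins (%) by the number of protein-coding gene 5′ ends in the bin, for the 669 member bins (dark) and all 13378 bins (light). Bins with no start make up 18.1% of members and 51.9% of all bins.

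The base composition of the members also stood apart from that of other bins. Their median GC content was 45.2% (quartiles 42.4% and 47.3%) against 42.1% over all bins (39.8% and 44.4%), and a median of 10.9% of their bases was repeat-masked against 16.3%. GATC sites were denser, with a median of 37 fragments per member against 28 per bin and a mean fragment length whose median was 270.3 bp against 357.1 bp. Gene density was higher at like GC content too. All bins were divided into 5 classes of nearly equal number by GC content. In the class with the highest GC content (45.1% and above), members had 3.10 protein-coding starts per bin and other bins 1.65, and in the class with the lowest (39.3% and below) 1.11 and 0.46. Median exon cover in that lowest class was 44.3% in members and 4.09% in other bins. The highest class supplied 341 members (51.0%), the lowest 92 (13.8%), and the next to lowest only 38 (5.68%), so that the members held both a GC-rich and a GC-poor portion. Across the 669 members the average level and GC content were nearly unrelated (Pearson's r = 0.0067, a description over bins that share 6 libraries).

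The members that held no gene start at all numbered 102 (15.2%, against 44.9% of all bins). None of them lay outside genes, and 76 lay wholly within gene bodies. Their median exon cover was 49.9% and their median GC content 41.8%. Their median control diet mean was -0.34 and their median sugar diet mean -0.69, and 57 of them were called lower and 16 higher on the sugar diet in the limma comparison given further on, in which 29.2% of all bins were lower and 19.8% higher. They include the bins inside *Bruce*, *osa* and *spen*.

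Genes that started in members were of ordinary length but lay close together. Their median length was 2222 bp against 2166 bp for all protein-coding genes, with a median of 4 exons against 3, and 2.15% were longer than 20 kb against 7.26%. For 57.5% of them (960 of 1671) another protein-coding gene started on the opposite strand within 1 kb upstream, a divergent pair, against 33.3% of all protein-coding genes. By biotype, members held the starts of 72 of 269 small nucleolar RNA genes (26.8%), many of which sit in introns of host genes and share their bin, and of 11 of 290 tRNA genes (3.79%) and 209 of 3261 long or other noncoding RNA genes (6.41%). They held 0 of 99 annotated rRNA genes and 21 of 268 pseudogenes (7.84%).

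Lists of genes that work together were read against the background of 10.9% of all genes. Members held the starts of 10 of 25 Mediator subunits (40.0%), 16 of 48 proteasome subunits (33.3%), 13 of 51 translation initiation and elongation factors (25.5%), 20 of 80 respiratory chain and ATP synthase subunits, 23 of 93 cytoplasmic ribosomal proteins (24.7%) and 16 of 73 mitochondrial ribosomal proteins (21.9%). The share was 3 of 8 for spliceosomal Sm proteins, which bind the small nuclear RNAs. It was 6 of 25 for heat shock proteins and their cognates (24.0%), but these 6 genes start in only 3 bins. Nucleoporins had 4 of 21 (19.0%) and subunits of the vacuolar proton pump 6 of 33 (18.2%). Not every list of housekeeping genes followed. Members held none of the 30 RNA polymerase subunits, whose median level over the 6 samples was -0.20 with 24 of 30 below 0, and 2 of 19 cytoskeleton and glycolysis genes (10.5%), *Gapdh2* and *Ubi-p63E*. None of the 111 replication-dependent histone genes, which lie in a repeated cluster, started in a member, and their median level was 0.
Of the developmental and neuronal lists, members held none of the 8 Hox genes, the classic Polycomb targets, whose median level was 2.72, and 1 of 20 synaptic and neuronal genes, *Syx1A* (5.00%). They held 3 of 19 Polycomb group genes, *Asx*, *phol* and *Su(z)12*. None of the 8 sweet taste receptors started in a member. *Gr5a* itself averaged 0.21 over the 6 samples, and the list had a median of -0.06 with 4 of 8 below 0. The bitter receptors *Gr32a* and *Gr66a*, which the sweet neurons do not use, did start in members, as 2 of 8 genes of a list with the same median, -0.06, and 5 of 8 below 0. These values are ratios of *Dam::Pcl* to *Dam* and not expression, so they do not check which cells were profiled.

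**Figure D3:**
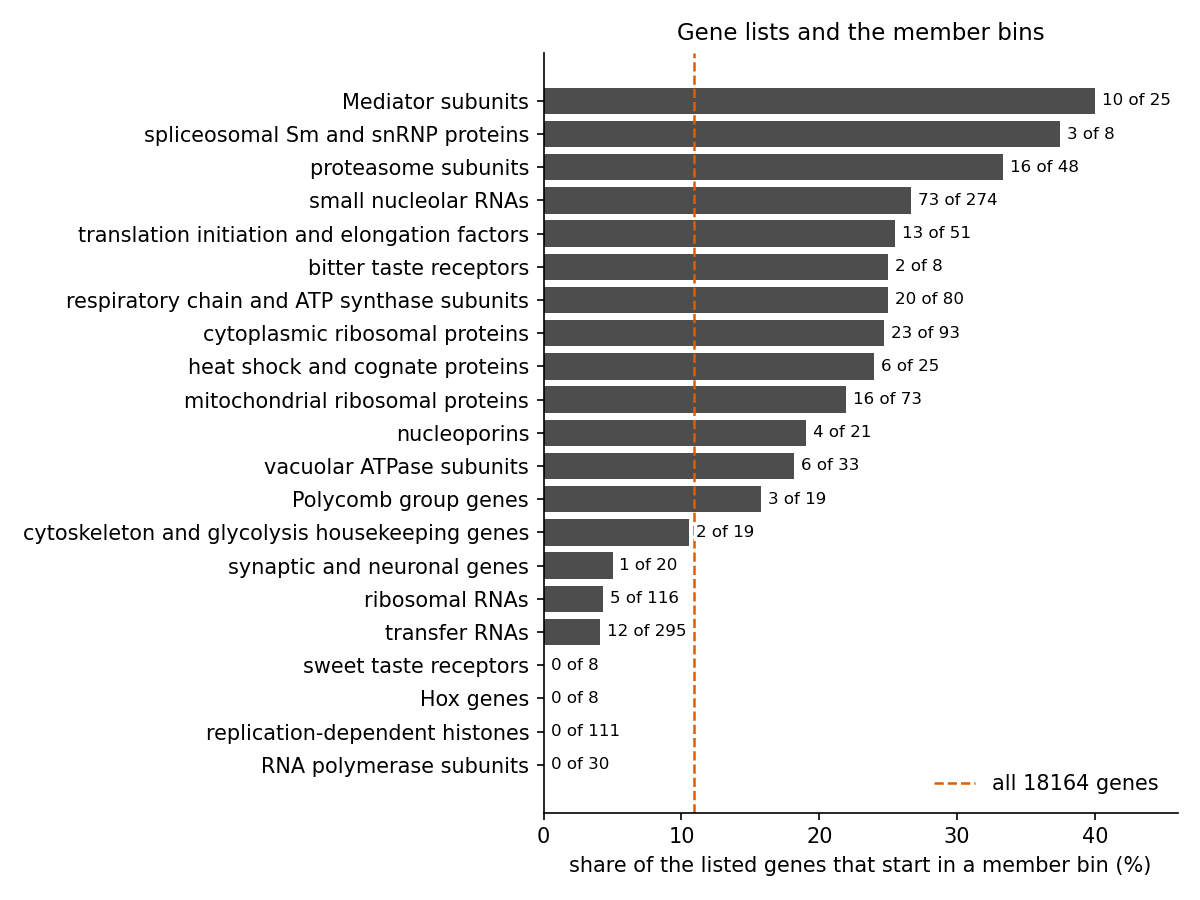
Share of the genes in each list (%) whose annotated 5′ end lies in a member bin, with the count beside each bar; the dashed line is the share of all 18164 genes (10.9%). Mediator subunits reach 40.0%, while Hox genes, histones, sweet taste receptors and RNA polymerase subunits are at 0.

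For single genes the window was the gene and 1 kb beyond either end, so that close neighbours share fragments. Among the ribosomal proteins the lowest that started in a member was *RpLP2*, a protein of the ribosomal stalk, which read -1.15, -1.65 and -1.80 on the control diet and -1.73, -1.70 and -1.57 on the sugar diet. The lowest proteasome subunit was *Prosbeta7*, at -1.22, -1.50 and -1.59 on the control diet and -1.84, -1.47 and -1.54 on the sugar diet. The lowest Mediator subunit was *MED9*, at -1.14, -1.07 and -1.47 and then -1.23, -1.32 and -1.21. All 3 genes were well below 0 in every sample, and the diets overlapped at each. Of the genes that start in the 10 lowest bins, *CG1161* was lowest, its control diet mean being -2.001 ± 0.188 and its sugar diet mean -2.001 ± 0.339 (SD, n = 3). Not every such gene was low, since *ush*, whose span runs far beyond its bin, averaged 1.04 ± 0.09 (SD, n = 3) and 1.44 ± 0.10 (SD, n = 3).

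The promoters, taken over the same 280 bases as above, were searched on both strands for 7 short sequences. Over the 1671 protein-coding genes that start in members, 16.0% held the DRE against 9.21% of all 13945 promoters, and 9.75% held the core of Motif 1 against 5.50%. The E-box CAGCTG was in 19.4% against 16.5%, and TATAAA in 47.4% against 44.4%. Sequences linked to Polycomb recruitment were somewhat less frequent, GAGAGA at 6.88% against 11.8% and the Pho core GCCAT at 36.5% against 39.5%. The GATC site that the assay reads was in 35.8% against 42.5%. TATAAA and TATCGATA do not contain each other, and a match is no evidence of a bound factor. The median GC content of these promoters was 35.7% against 37.5%, lower than that of the bins they lie in.

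Around the 5′ ends of those 1671 genes, the lowest windows of the diets lay at different places. These genes were taken because their 5′ ends lie in bins chosen as low in the same 6 samples. A low level near the 5′ end is therefore set by the choice, and the levels are a description. On the control diet the lowest 250 bp window was the one from 250 to 500 bp downstream of the 5′ end, at -0.72 over all genes and -0.65, -0.77 and -0.76 in the replicates. On the sugar diet it was the window just upstream, from 250 bp before the 5′ end to the end itself, at -0.81, with -0.87, -0.76 and -0.79 in the replicates. Each control diet sample had its lowest window downstream and each sugar diet sample upstream. GC content differed between these windows, at 49.2% downstream and 35.8% upstream. In the 12274 other protein-coding genes the downstream window averaged 0.09 on control against 0.21 on sugar, and the upstream one 0.26 against 0.12. The order of the diets turned between the windows there as well.

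**Figure D4:**
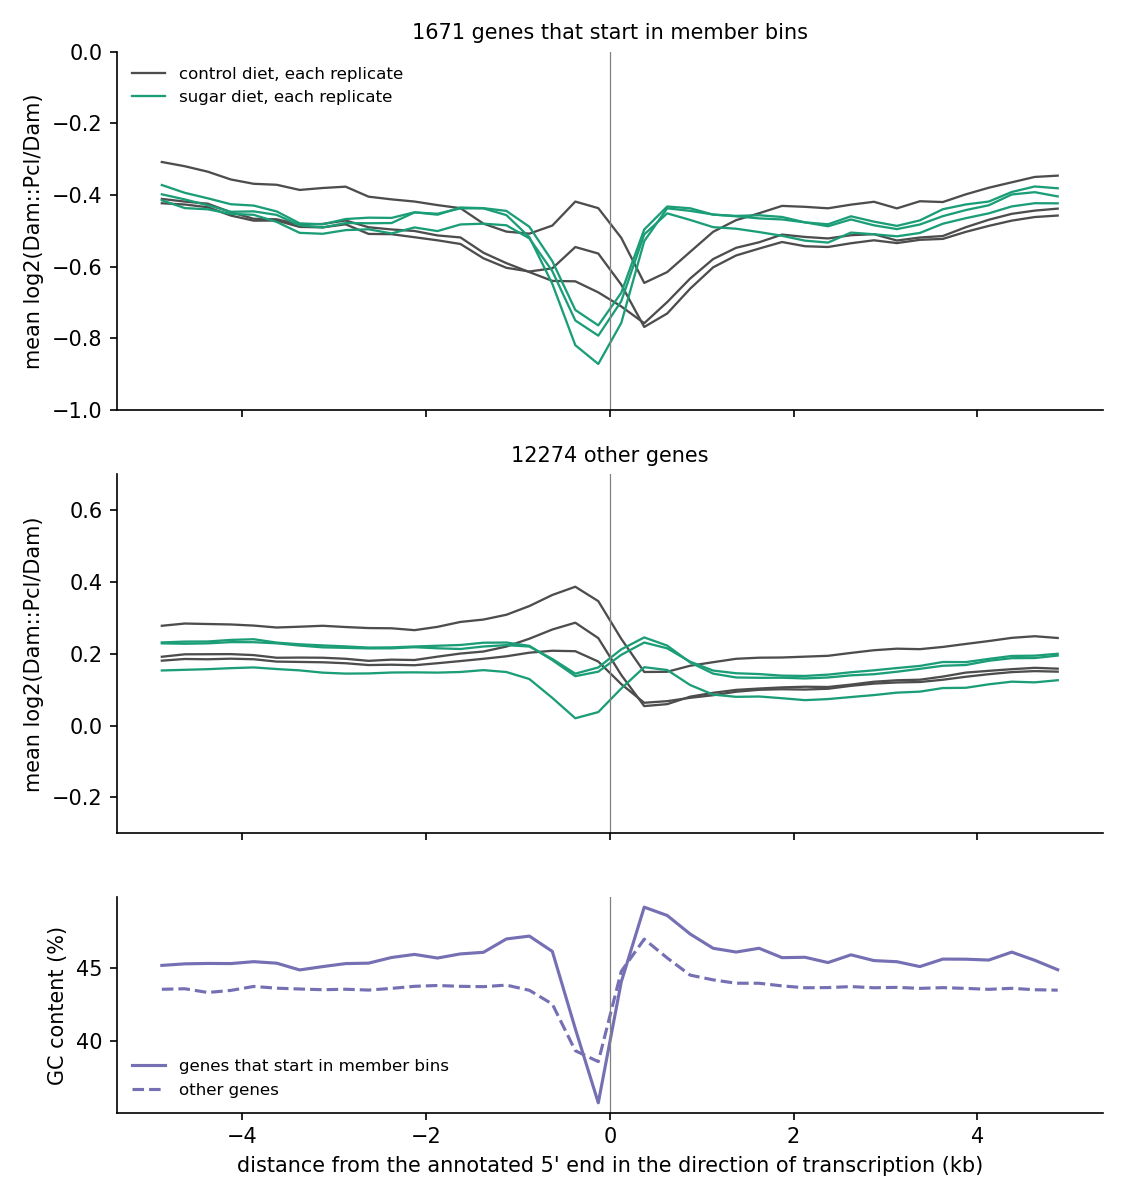
Mean log2(*Dam::Pcl/Dam*) in 250 bp windows within 5 kb of the annotated 5′ end, in each control diet (dark) and sugar diet (green) replicate, for genes that start in members (top) and other protein-coding genes (middle), with the GC content of the windows (%, bottom). In the top panel the control diet minimum of -0.72 lies downstream of the 5′ end. The sugar diet minimum of -0.81 lies just upstream, where GC content falls to 35.8%. The genes of the top panel start in bins chosen as low in these samples.

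The members were spread over all arms. They made up 4.89% of the bins of 2L (115), 5.73% of 2R (145), 4.60% of 3L (129), 5.42% of 3R (174) and 3.15% of X (74), but 23.7% of chromosome 4 (32 of 135), the small, largely heterochromatic chromosome. They formed 509 runs of touching bins, of which 397 were 1 bin long, and 272 bins (40.7%) had a member next to them. The longest run was 8 bins on 3L, from 180001 to 260000, with 22 protein-coding starts, among them *Mkp*, *Mtch*, *rno*, *thoc7*, *E(bx)* and *DIP2*. Its mean was -0.53, -0.63 and -0.63 on the control diet and -0.73, -0.68 and -0.73 on the sugar diet. A run of 6 bins on 2L, from 10370001 to 10430000, held 23 starts, including *Cdk1*, *mRpS7*, *da*, *Mdh1*, *RpS27A* and *SmB*, with means of -0.23, -0.34 and -0.50 and then -0.999, -0.87 and -0.95. A run of 5 bins, from 10240001 to 10290000 on the same arm, held 15, including *chico*, *bsk* and *Utx*, a histone H3 lysine 27 demethylase. There the means were -0.22, -0.32 and -0.49 on the control diet and -1.05, -0.93 and -1.05 on the sugar diet. In all 3 runs every sugar diet sample lay below every control diet sample, by little in the 3L run, where 3 bins were called lower and 4 higher, and by more in both 2L runs.

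Whether the depleted bins were the same on both diets was asked by applying the rule to each diet alone. The lowest 5% held 669 bins on either diet, and 152 of them (22.7% of each list) were shared. Of the 669 members, 152 were in the lowest 5% on both diets, 276 on the control diet only, 203 on the sugar diet only and 38 on neither. Bins chosen on the control diet samples had a median of -0.33 in the sugar diet samples, against 0.08 for all bins, and 95.5% of them were below that all-bin median. Bins chosen on the sugar diet samples had a median of -0.10 in the control diet samples, against 0.17, and 78.9% were below it. Low bins of a diet were therefore mostly low on the other, but not the lowest. The 517 bins in the list of the control diet alone had a median GC content of 47.5% and 2.78 protein-coding starts per bin, the 517 of the sugar diet alone 38.4% and 1.34, and the 152 shared bins 45.5% and 2.72.

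The diets were then compared bin by bin with limma over all 13378 bins, with Benjamini-Hochberg adjustment and a threshold of 0.05 on the adjusted p-value. Of the 669 members, 428 (64.0%) passed, against 49.0% of all bins. Of these, 200 (29.9%) were higher on the sugar diet, against 19.8% of all bins, and 228 (34.1%) were lower, against 29.2%. In 479 members (71.6%) the samples of the diets did not overlap, against 61.7% of all bins. The median difference, sugar diet minus control diet, was 0.01 in members and -0.03 in all bins (0.12 and 0.03 after quantile normalization). Members lay between -2.05 and 1.01, with a median SE of 0.07. On the deposited scale the share of members past the threshold was thus somewhat above that of all bins, in both directions. This is a description, because the same 6 samples chose the members. The balance of the directions depended on the scaling. Quantile normalization gave 308 higher and 195 lower, scaling by the median and the median absolute deviation gave 369 and 160, and the counts were 17 and 337 after a correction for GC content.

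The difference between the diets followed the GC content of the members. Across the 669 members Pearson's r between GC content and difference was 0.888 and Spearman's rho 0.850. It was 0.848 and 0.827 without chromosome 4, and r was 0.648 across the other 12709 bins. These are descriptions across bins that share the same 6 libraries. For each of the 9 pairs of a sugar diet and a control diet sample, r in members lay between 0.865 and 0.886, so that no single *Dam::Pcl* sample carried it. If the samples of a diet share a *Dam* denominator, all pairs share it too, and they cannot test its part. Of the 92 members in the GC-poorest of the 5 classes, 91 were called lower (98.9%, against 69.4% of the other bins) and 0 higher, with a median difference of -0.995 against -0.32 in the other bins of that class. In the next class up 32 of 38 were called lower (84.2%, against 40.7%) and 0 higher, with a median difference of -0.59 against -0.17. In the middle class 40 of 62 were called lower (64.5%, against 19.7%) and 2 higher, with medians of -0.30 and -0.02, and in the class above it 49 of 136 were called lower (36.0%, against 9.26%) and 9 higher (6.62%, against 30.2%), with medians of -0.09 and 0.12. In the class of highest GC content, 189 of 341 were called higher (55.4%, near the 57.1% of the other bins) and 16 lower (4.69%, against 2.49%), with a median difference of 0.21 against 0.24 in the other bins. These gaps between members and other bins are a description, because the same 6 samples chose the members. In the GC-poorest class their control diet median was -0.05 and their sugar diet median -1.03, so that they entered the lowest 5% through the sugar diet samples.
After the correction, which takes out a quadratic trend in GC content fitted over all bins, 354 members passed, 17 higher (2.54%, against 13.6% of all bins) and 337 lower (50.4%, against 24.6%). Whether the differences in members still followed GC content after it was not tested. The median difference was then -0.20 in members and -0.04 in all bins. Of the 428 members called before, 240 were called again in the same direction, 224 of the 228 lower and 16 of the 200 higher, and 25 were called in the opposite one. What part of the relation to GC content came from the libraries and what part from *Pcl* was not tested.

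**Figure D5:**
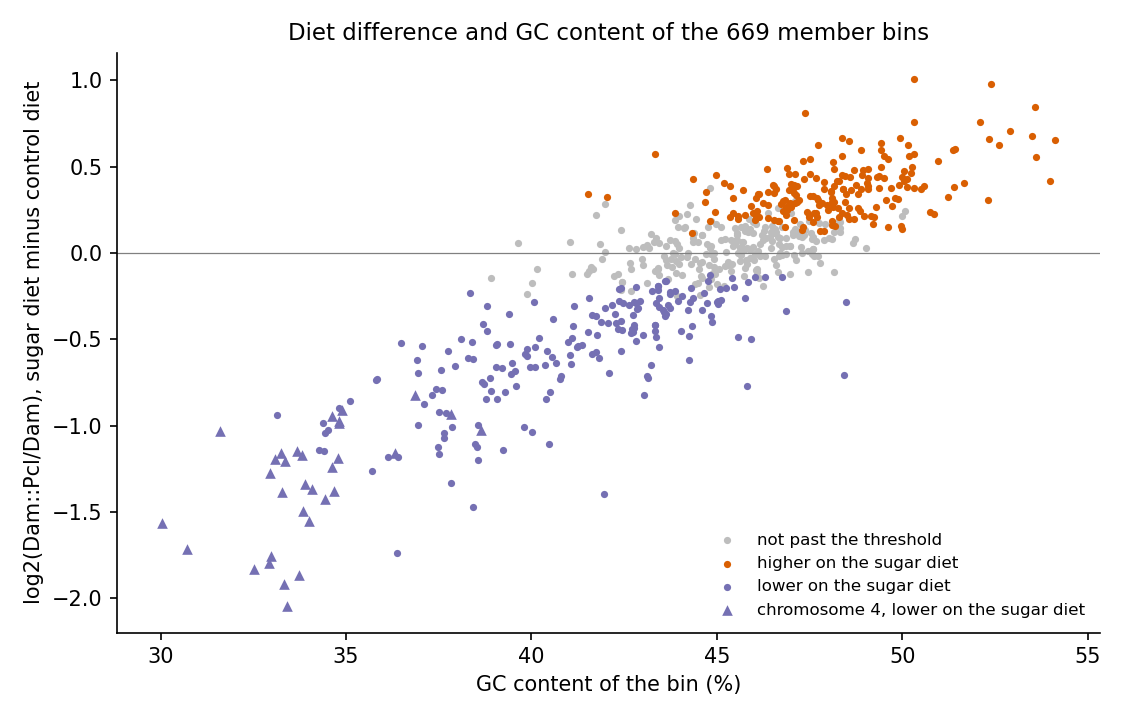
Difference in log2(*Dam::Pcl/Dam*) between the sugar diet and the control diet (mean of 3 minus mean of 3) against GC content (%) for the 669 member bins, coloured by the limma call; triangles are the 32 members on chromosome 4. The difference climbs from -2.05 to 1.01 with GC content (Pearson's r = 0.888).

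The member bins with the largest rise on the sugar diet were GC-rich. Bin 2R:23380001-23390000, with the starts of *yellow-d2*, *roh* and *eIF2Bdelta*, a subunit of the exchange factor of translation initiation, read -1.28, -1.40 and -1.31 on the control diet and -0.25, -0.32 and -0.40 on the sugar diet. The difference was 1.01 ± 0.06 (SE), with an adjusted p of 0.00182 in limma, and the bin stayed below 0 in all samples. Bin 2R:24760001-24770000, which lies next to the threshold and holds *GstE12*, rose from -0.90 ± 0.03 (SD, n = 3) to 0.08 ± 0.10 (SD, n = 3), the one member with a sugar diet mean above 0. Bins 3R:27260001-27270000, with the start of *woc*, 3L:5800001-5810000, which overlaps *S6k*, the ribosomal protein S6 kinase, and 3R:17690001-17700000, inside *osa*, a subunit of a chromatin remodeler, rose by 0.84, 0.81 and 0.76. After the GC correction the differences at the *eIF2Bdelta*, *GstE12* and *S6k* bins were 0.50, 0.33 and 0.51 and still passed, while those at *woc* and *osa* were 0.11 and 0.13 and no longer passed in limma (adjusted p of 0.18 and 0.20). The rise at *Bruce*, 0.32 ± 0.09 (SE), with an adjusted p of 0.0381, also fell short after that correction, at 0.11 (adjusted p of 0.37 in limma), and lost the call when any of 4 samples was left out (adjusted p between 0.0768 and 0.0876).
The largest falls were on chromosome 4. Bin 4:110001-120000, which overlaps *pan*, the transcription factor of the Wnt pathway, and *Ank*, an ankyrin, read 0.41, 0.24 and -0.23 on the control diet and -2.003, -1.73 and -1.99 on the sugar diet. Its difference was -2.05 ± 0.18 (SE), with an adjusted p of 0.00186 in limma. The next, 4:1120001-1130000, with the starts of *Cals* and *Arf4*, 4:210001-220000, with that of *Crk*, a signaling adaptor, and 4:100001-110000, in *pan*, differed by -1.92, -1.86 and -1.83. Control diet replicate 3 was the lowest control sample in these 4 bins, and every sugar diet sample lay far below it. After the GC correction these differences lay between -1.78 and -1.48 and still passed.

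Chromosome 4 differed from the other arms in level as well as in number. Its 32 members had a median GC content of 33.8%, 0.81 protein-coding starts per bin and a median of 25.99% repeat-masked bases. Their median was 0.21, 0.08 and -0.11 in the control diet replicates and -1.25, -1.11 and -1.25 in the sugar diet replicates, so that they entered the lowest 5% through the sugar diet samples. All 32 were called lower, as were 117 of all 135 bins of the chromosome. Without chromosome 4, 396 of 637 members passed in limma, 200 higher (31.4%) and 196 lower (30.8%), against 20.0% and 28.6% of all bins outside that chromosome. Their median GC content was 45.5%.

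By gene, 1983 of the 1986 genes that start in members had at least 2 fragments and were tested in the limma fit of 18119 genes. Of these, 1102 (55.6%) passed, against 48.0% of all genes, with 580 higher on the sugar diet (29.2%, against 22.3%) and 522 lower (26.3%, against 25.7%). These shares too are a description, because the same samples chose the member bins. After the GC correction 733 passed, 144 higher (7.26%, against 14.6% of all genes) and 589 lower (29.7%, against 18.7%).
The list genes that start in members were called in both directions. Mitochondrial ribosomal proteins were mostly higher, 9 of 16 against 1 lower, as *mRpS2*, which rose from -1.69 ± 0.20 (SD, n = 3) to -0.71 ± 0.23 (SD, n = 3), and *mRpL43*, from -1.38 ± 0.01 to -0.67 ± 0.08 (SD, n = 3). Proteasome subunits had 4 of 16 higher and 0 lower, with *Rpn3*, a lid subunit, up by 0.57 ± 0.08 (SE). Mediator subunits had 4 of 10 higher and 1 lower. Respiratory chain genes had 9 of 20 higher and 5 lower, nucleoporins 3 of 4 higher, and translation factors 5 of 13 higher and 4 lower, with a difference of 0.75 ± 0.10 (SE) at *eIF2A* and of -0.97 ± 0.11 (SE) at *eIF5*. Cytoplasmic ribosomal proteins had 3 of 23 higher and 7 lower. Small nucleolar RNAs, 73 of them in 26 bins, had 8 higher and 46 lower. Each of these shares is to be read against the 22.3% and 25.7% of all genes, and the genes of a list can share a bin. The 4 of 16 proteasome subunits called higher are near the first share. The 7 of 23 cytoplasmic ribosomal proteins and 4 of 13 translation factors called lower are near the second. Counts by list after the GC correction are not given here. Several whole lists leaned the same way. All 274 small nucleolar RNAs had 33 higher and 157 lower, all 21 nucleoporins 13 and 2, and all 48 proteasome subunits 19 and 6. The whole lists were more even for mitochondrial (23 higher and 17 lower of 73) and cytoplasmic ribosomal proteins (21 and 23 of 93).
Genes far lower on the sugar diet included *MED21*, a Mediator subunit on 3L, which read 0.23, -0.01 and -0.48 on the control diet and -2.03, -1.79 and -1.97 on the sugar diet (limma, adjusted p = 0.00219). *Gapdh2*, a glycolytic enzyme, read 0.73, 0.63 and -0.34 on the control diet and -2.07, -1.95 and -2.03 on the sugar diet (limma, adjusted p = 0.00313). *ND-49*, a complex I subunit on chromosome 4, differed by -1.54 ± 0.18 (SE) and *RpL15* by -1.07 ± 0.18 (SE). At these 4 genes replicate 3 was the lowest control diet sample, and every sugar diet sample lay below it. The values of both diets entered the choice of the bins in which these genes start, so the falls are a description. In the opposite direction, *Hsp26*, a small heat shock protein, read -1.50, -1.56 and -1.54 on the control diet and -0.38, -0.59 and -0.58 on the sugar diet (limma, adjusted p = 0.00168), and *cbt* rose by 0.86 ± 0.14 (SE). The 3 Polycomb group genes and both bitter receptors in members did not pass, with differences between -0.14 and 0.23.

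Among all genes that start in members, the largest rise was at *mRpS14*, a mitochondrial ribosomal protein on X (19479382 to 19480238), which read -1.74, -1.87 and -1.34 on the control diet and -0.27, -0.15 and -0.25 on the sugar diet. It rose by 1.43 ± 0.14 (SE), with an adjusted p of 0.00216 in limma, and by 0.65 after the GC correction. *GstE12*, a glutathione transferase, followed with 1.39, and then *CG12321* with 1.29, lncRNA:CR44209 with 1.24 and *CG44242* with 1.22. Except at *GstE12* and lncRNA:CR44209, the sugar diet mean was still below 0, at -0.22, -0.63 and -0.05.
The largest falls were at copies of the ribosomal RNA repeat on X, 2SrRNA-Psi:CR45858 (difference of -3.37), 5.8SrRNA-Psi:CR45857 (-3.17), FBtr0473838_df_nrg (-2.46) and mir-10404-5 (-2.41). Reads from near-identical copies of the repeat can be assigned to any of them, so these values are uncertain, and each rests on 4 fragments. The last of the 5 genes, *CG12547* on 2R, read 0.59, 0.68 and -0.10 on the control diet and -2.40, -1.89 and -2.08 on the sugar diet, a difference of -2.52 ± 0.25 (SE) with an adjusted p of 0.00208 in limma.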

How the data were processed

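Reads of low quality had been dropped by the authors, who used Bowtie2 with the dm6 (BDGP6) genome and deposited, for each GATC fragment and each *Dam::Pcl* sample, the log2 ratio to *Dam* alone from damidseq_pipeline. The normalization option and the *Dam* profile used for each ratio are not given in the sources used here. The ratios hold no counts, so DiffBind, which the methods name, was not used. Length-weighted means per 10 kb bin, and per gene span with 1 kb on each side for genes with at least 2 fragments, were taken with Python 3.11.15, pandas 2.3.3 and numpy 2.4.6 from the Release 6 genome and the Ensembl annotation. Bins made only of assembly gap were left out. Diets were compared (sugar minus control, two-sided) with lmFit and eBayes of limma 3.58.1 in R 4.3.3, with Benjamini-Hochberg adjustment over all bins or all genes, and the steps were tested on simulated data. The GC correction fitted each sample's deviation from the 6-sample mean to a quadratic in GC content whose terms could vary with that mean, and set it to the median GC content. The members, gene lists and motifs were chosen with earlier results of these data known.

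Named are the 10 lowest bins and the genes that start there, the 3 bins on each side of the threshold, the 5 bins and 5 genes with the largest change each way among those past the threshold with samples that did not overlap, up to 3 genes per list with the lowest average, and *Gr5a*, *Gr66a* and *Pcl*, which averages -0.37 and does not start in a member. Alternatives were other scalings, the GC correction, the replicate number as a block, each replicate left out in turn, other bin sizes, windows, filters and thresholds, other shares of bins, the median over fragments, and members chosen on each diet alone. The samples of *Dam* alone, the Y chromosome and unplaced sequences were not analysed here, and 1 bin that the rule names is not reported here. The labels call the replicates biological, with nothing on how the cohorts of flies were kept apart.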

Additional observations from a re-analysis of the deposited data

How the results depend on the processing

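With an adjusted p under 0.01, 276 member bins, 3577 of all bins and 675 genes that start in members passed. Over all genes no count is given at this threshold, with the replicate block or with single replicates left out. The counts of member genes at those settings therefore have no background here. With the GC correction and the replicate block together, 232 members (6 higher, 226 lower), 2561 of all bins and 523 genes (97 higher, 426 lower) passed, and with the GC correction alone 733 genes. With bins of 5 kb, 805 of 1338 members (60.2%) and 12183 of all bins passed, and with bins of 20 kb, 212 of 335 (63.3%) and 3477, counts that follow the number of bins. Leaving out single replicates, between 340 and 392 members, between 4658 and 6030 of all bins and between 847 and 995 genes passed. The split of all bins was 2654 higher and 3907 lower as deposited, 3871 and 3668 after quantile normalization and 3980 and 3484 after median and median absolute deviation scaling; that of the genes was 759 and 480, and 788 and 455, against 580 and 522. The latter scaling moved the median difference from 0.01 to 0.54 over members, from -0.03 to 0.08 over all bins and from -0.01 to 0.12 over all genes, in units of the median absolute deviation. Whether the replicate numbers pair samples of the diets is not given in the sources used here. The deviations of same-numbered samples correlated at -0.43, 0.27 and -0.30 over bins. The highest correlation of any pair was 0.57, for control diet replicate 3 and sugar diet replicate 1. Deviations from a mean of 3 samples are tied to each other, so these values do not settle the pairing. With the replicate block, 344 members (157 higher, 187 lower), 4388 of all bins and 896 genes passed. At those of the 10 lowest bins that were called and at the bins and genes with the largest changes, the direction held under each alternative run, and 363 values kept their side of the threshold. The 11 that lost it were at the *Bruce*, *woc* and *osa* bins and at *CG44242*, which missed it when only 500 bases on each side of the 5′ end were read (adjusted p of 0.0508 in limma). The alternatives kept 428 members on the control diet alone, 355 on the sugar diet alone, 396 with the median over fragments and 393 with 20 kb bins. Protein-coding starts per bin were 1.66 for members chosen on the sugar diet alone and between 1.99 and 2.77 under the other alternatives, and median GC content ranged from 39.8% to 47.1%. Read depth, which is unknown, and 3 samples per diet limit all of these values.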
